A study of Equus caballus with 19 samples.

Results

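Equine tenocytes, the resident cells of tendon, were compared with and without interleukin 1 beta (IL-1β) in the second of the study's RNA sequencing batches. The comparison used 6 of the study's 19 libraries, 1 control and 1 IL-1β library from each of 3 tenocyte lines, called lines 6, 7 and 8 here. Libraries were chosen by their treatment and batch labels alone and paired by line, and 16705 of 29196 gene names passed a filter of at least 10 normalised counts in at least 3 of the 9 libraries of that batch. The other 3 libraries of the batch, IL-1β given together with the IL-1 receptor antagonist protein (IL1Ra), entered the fit to help estimate the spread.

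All groups shared the same cells, primary wild-type tenocytes of the adult superficial digital flexor tendon, each line from 1 horse, seeded in bovine type I collagen gels in medium with serum. Control gels received 0 nM IL-1β, IL-1β gels 1 nM, and the remaining gels 1 nM IL-1β with 100 ng/ml IL1Ra. Medium was renewed every few days and RNA was taken at day 14. The controls are therefore cultured cells in a reconstituted matrix, without the blood vessels, load or leukocytes of a tendon in the animal. With 1 library per line and condition, every p-value rests on how unequally these 3 lines responded. That spread was estimated from all 9 libraries of the batch, those with IL1Ra included. It was also drawn toward a trend over all genes tested.

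IL-1β is an early inflammatory cytokine that binds the receptor IL1R1 together with IL1RAP. The adaptor MYD88 and the IRAK kinases then release NF-κB from its IκB inhibitors and activate the p38 and JNK kinases, which act on AP-1 transcription factors. Fibroblasts answer with chemokines, prostaglandins and matrix proteases, and with inhibitors such as TNFAIP3 that limit the signal. Tenocytes are kept in their lineage by transcription factors such as scleraxis (SCX) and Mohawk (MKX), and they build a matrix of type I collagen with small proteoglycans and glycoproteins that pull and order the fibres.

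The control libraries summed to between 24.96 M and 28.65 M normalised counts (median 28.02 M) and the IL-1β libraries to between 27.7 M and 34.6 M (median 30.6 M). Across the 6 libraries the 10 most abundant genes took 4.99% to 13.8% of the counts. Of 10 tenocyte or tendon fibroblast markers 9 had values, and they summed to between 297655 and 875908 in control and between 406137 and 601226 with IL-1β. TNMD, the mature tendon marker tenomodulin, was at 1.0, 0 and 0 in the control libraries of lines 6, 7 and 8 and was listed at 0 in all IL-1β libraries. Of 10 leukocyte markers 7 were under 10 in all 6 libraries and 4 (AIF1, CD3E, CD79A and TYROBP) were at 0 in all of them. Their sum was 230.3 to 1268 in control and 672 to 3052 with IL-1β, and it came almost wholly from CD14 and CD68. CD14 was listed at 1195, 0 and 0 in the control libraries of lines 6, 7 and 8 and at 1158, 1262 and 0 with IL-1β. An exact 0 in these files can be a failed estimate, as described below for EIF2S2, so the difference between these sums is uncertain. CD68 had 66.6, 216 and 287 in control and 181, 1769 and 665 with IL-1β. The 8 endothelial markers summed to 559 to 1101 in control and 105 to 133 with IL-1β. The control sums came mainly from ERG, also found in other mesenchymal cells, which had 1018, 600.1 and 497 in control and 53.1, 45.9 and 54.3 with IL-1β. EGFL7 was higher with IL-1β in each line (31.2, 24.5 and 24.7, then 38.7, 43.2 and 33.8). PECAM1 was higher in lines 6 and 7 and lower in line 8 (1.01, 13.1 and 10.2, then 14.4, 29.7 and 6.50). CDH5 and KDR stayed under 10 throughout. The 6 mural markers summed to 3352 to 8184 in control and 961 to 2338 with IL-1β, and none of the 6 was under 10 throughout. Epithelial markers (5 of 6 under 10 throughout) summed to at most 112.5, adipocyte markers (3 of the 4 with values under 10 throughout) to between 52.2 and 6070, the upper end from ADIPOQ in the control of line 7, and skeletal muscle markers (1 of 5 under 10 throughout) to at most 389.7. In bulk RNA, fewer cells of a type and less RNA per cell cannot be told apart, and the part of other cell types in the results below was not tested.

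The lines differed from each other before any cytokine was added. SCX had 4720, 266 and 105 normalised counts in the control libraries of lines 6, 7 and 8, and MKX had 4059, 151 and 11.5. CIITA, the master activator of MHC class II genes, had 0, 1261 and 1784, and CXCL10, an interferon-induced chemokine, had 2.07, 23285 and 36860.1. Line 6 thus had by far the most RNA of both tendon factors and was listed at or near 0 for CIITA and CXCL10, which lines 7 and 8 held at high levels. Counts of DE genes are therefore also given without line 6 for some of the lists. The counts of lists for which none is given could move as well.

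A gene was called differentially expressed (DE) when its Benjamini-Hochberg adjusted p was under 0.05 and its log2-fold change at least 1 in size, in a limma fit that took the line of origin as a blocking term. IL-1β changed 865 of the 16705 genes tested (5.18%), of which 432 (2.59%) were higher and 433 (2.59%) were lower than in control. Each of the 865 moved in the same direction in 3 of 3 lines, which is no separate result because a paired test on 3 lines favours such genes. The median log2-fold change was 2.10 among the genes that rose and −2.19 among those that fell, and 135 and 114 of them changed by at least 3 on the log2 scale. All log2-fold changes are differences of log2(normalised count + 1), which understate the change of genes with few counts. For 227 of the 865 the 3 control and 3 IL-1β values overlapped, so that the change was seen within lines while the ranges of the groups were not apart. The same share was not counted over all genes tested.

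The number of calls depended on the pairing, on the IL1Ra libraries in the fit and on single lines. On the 6 control and IL-1β libraries alone, with the line as a block, 373 genes were DE, 194 higher and 179 lower. Without the line as a block 57 genes (0.341%) were DE, 45 higher and 12 lower. Of the genes named below, TNFAIP3, RELB, CCL20, CXCL1, MIP-2BETA, IL6, SAA1, PTGER4, SOD2, TNFAIP6, SOX5, ITGB8, ZC3H12A, MED12L, SMC4, MRVI1, LRIG1, LOC100060539, LOC100056936 and LOC100073089 were DE in that fit too. Leaving out line 6 gave 588 higher and 648 lower, leaving out line 8 gave 8 and 3, and leaving out line 7 gave 0 DE genes by limma, with 2963 genes at an unadjusted p under 0.05 and a lowest adjusted p of 0.0679. Every count of DE genes below therefore needs line 7. Without line 8 the genes named below that were DE were TNFAIP3, SAA1, MIP-2BETA, ZC3H12A, FGF10, TLL1, SMC2, LOC100060539, LOC100056936 and LOC100056698. When the libraries were scaled to equal sums, which shifted the median log2-fold change of all genes by −0.18, 339 genes were higher and 637 lower (34.7% higher, against 49.9% as deposited).

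**Figure D1:**
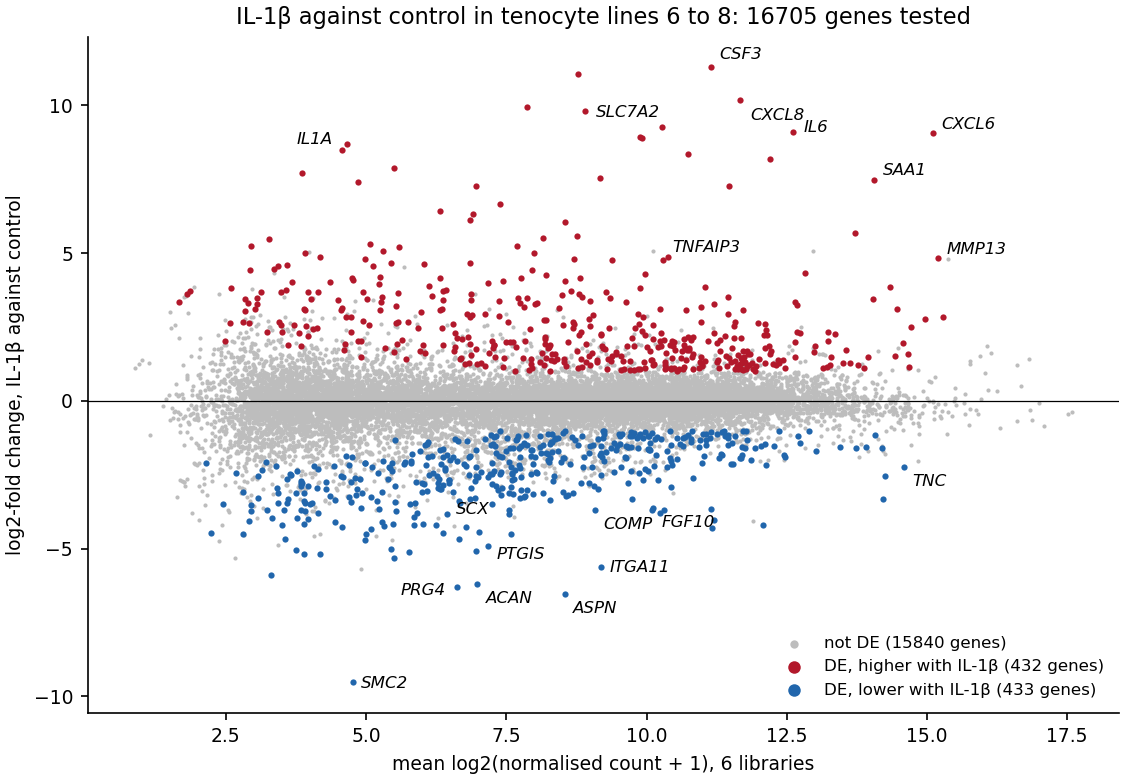
Log2-fold change with IL-1β (y axis) by the mean log2(normalised count + 1) of the 6 libraries (x axis), 1 point per gene tested. Red points are the 432 genes that rose, blue points the 433 that fell and grey points the genes that were not DE, and both include genes of low and of high level.

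The 10 largest rises with a gene symbol were CSF3, CXCL2, CXCL8, SLC7A2, MIP-2BETA, IL6, CXCL6, IL1B_1, IL1A and CXCL1. All but SLC7A2, a carrier of cationic amino acids such as arginine, encode cytokines or chemokines. SLC7A2 had 217, 5.70 and 1.76 normalised counts in the control libraries of lines 6, 7 and 8 and 67866, 6725 and 6546 with IL-1β. The lowest IL-1β value was far above the highest control value (log2-fold change 9.82 ± 0.78 SE, adjusted p = 0.00294). Among genes that have only a LOC number, LOC100060539 rose from 18.2, 3.78 and 3.46 to 7454, 4322 and 12499.9 (log2-fold change 9.96 ± 0.53, adjusted p = 0.00128). Its adjusted p was the smallest of the comparison, as were those of the RNase gene ZC3H12A and the growth factor gene FGF10. Among genes with small adjusted p was also MED12L, a subunit of the Mediator complex, which rose from 245, 105 and 96.7 to 2431, 1336 and 1202 (log2-fold change 3.53 ± 0.22, adjusted p = 0.00173), and LOC100056936 and LOC100056698 followed among LOC genes with log2-fold changes of 8.94 and 8.91.

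The 10 largest falls with a symbol were SMC2, ASPN, PRG4, ACAN, SLCO2A1, ITGA11, DISP3, GNA14, SFRP4 and PODXL. SMC2, a condensin subunit, was listed at 796, 1519 and 325 in control and at 0 in all 3 IL-1β libraries, and with IL1Ra it was listed at 0, 0 and 685. The translation factor gene EIF2S2, which all growing cells use, was also listed at 0 in 1 of the 3 control and in all 3 IL-1β libraries, so an exact 0 in these files can be a failed estimate and no fold is given for SMC2, which was not DE without line 6. Its partner SMC4 was measured in every library, at 4007, 2629 and 2407 in control and 769, 838 and 651 with IL-1β, and it fell by 1.97 on the log2 scale (SE 0.18, adjusted p = 0.00446).

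SLCO2A1, the prostaglandin uptake carrier, fell from 66.4, 184 and 35.4 to 0, 1.11 and 0. PODXL, the cell-surface sialomucin podocalyxin, fell from 625, 1519 and 395 to 40.6, 31.4 and 6.42 (log2-fold change −5.07 ± 0.41, adjusted p = 0.00298). Neither gene had an IL-1β value that reached the lowest control value. DISP3 fell from 19.8, 203 and 301 to 0, 5.36 and 3.14, and GNA14, a G protein alpha subunit, ranged widely, from 10.6, 82.0 and 758 in control to 0.846, 2.82 and 1.14 with IL-1β. Among LOC genes the largest falls were those of LOC100629324 (−5.32), LOC100073089 (−4.08) and LOC100058633 (−3.80).

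**Figure D2:**
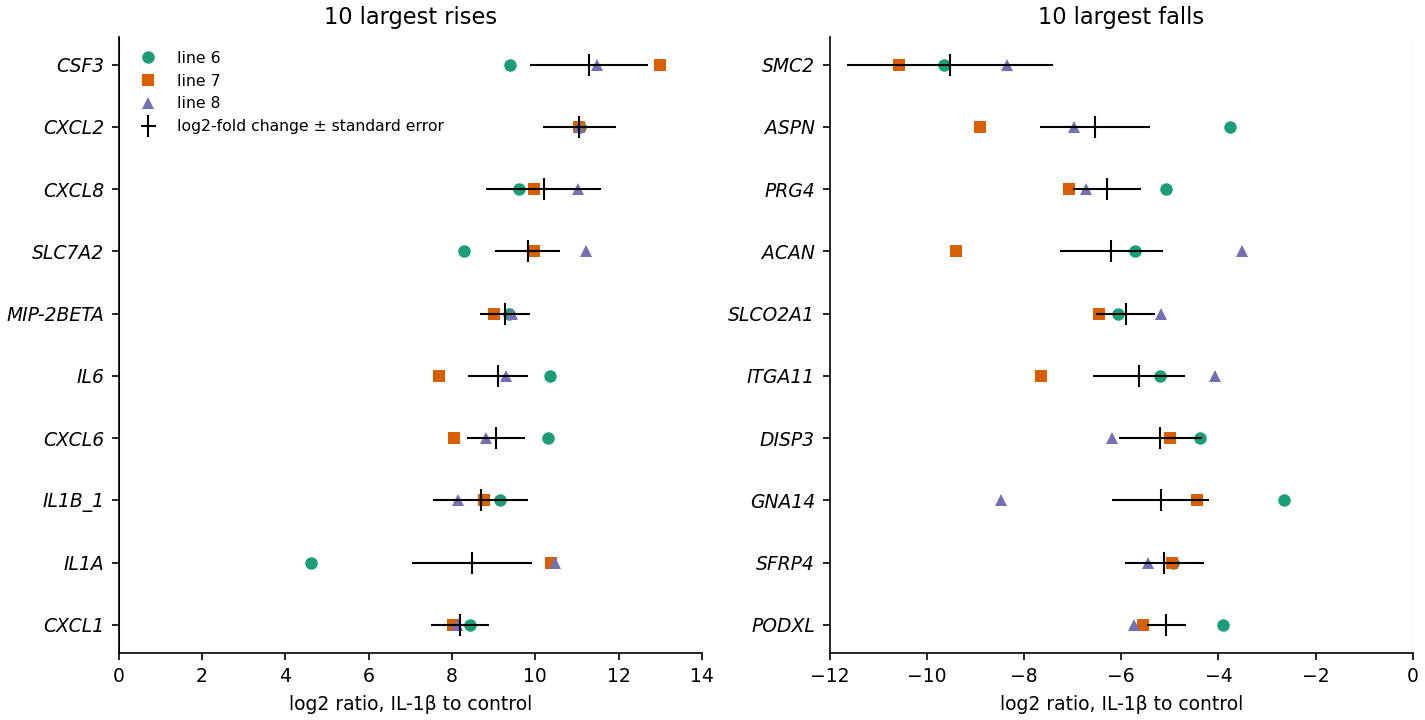
Log2 ratio of IL-1β to control (x axis) for the 10 largest rises and the 10 largest falls among DE genes with a symbol. Points are the within-line ratios of lines 6, 7 and 8, and the black tick with its bar is the log2-fold change with its standard error. The 3 lines of CXCL2, MIP-2BETA and CXCL1 lie close together, those of IL1A, ASPN, ACAN and GNA14 lie far apart, and the value of SMC2 depends on the pseudocount because its IL-1β libraries are listed at 0.

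Of the 28 gene lists that were described, 586 of 672 distinct members were tested, and 60 (10.2%) were higher and 52 (8.87%) lower with IL-1β, against 2.59% of all genes tested in each direction. Most tested members were not DE in every list except that of nucleotide and pyrophosphate genes, where 9 of 17 were. Among the members that were, rises outnumbered falls in the lists of NF-κB genes, chemokines, cytokines and metal-handling genes, and falls outnumbered rises in those of collagens, proteoglycans, matrix glycoproteins and tendon and cartilage lineage genes. Without line 6 the members that were DE numbered 79 higher and 64 lower.

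**Figure D3:**
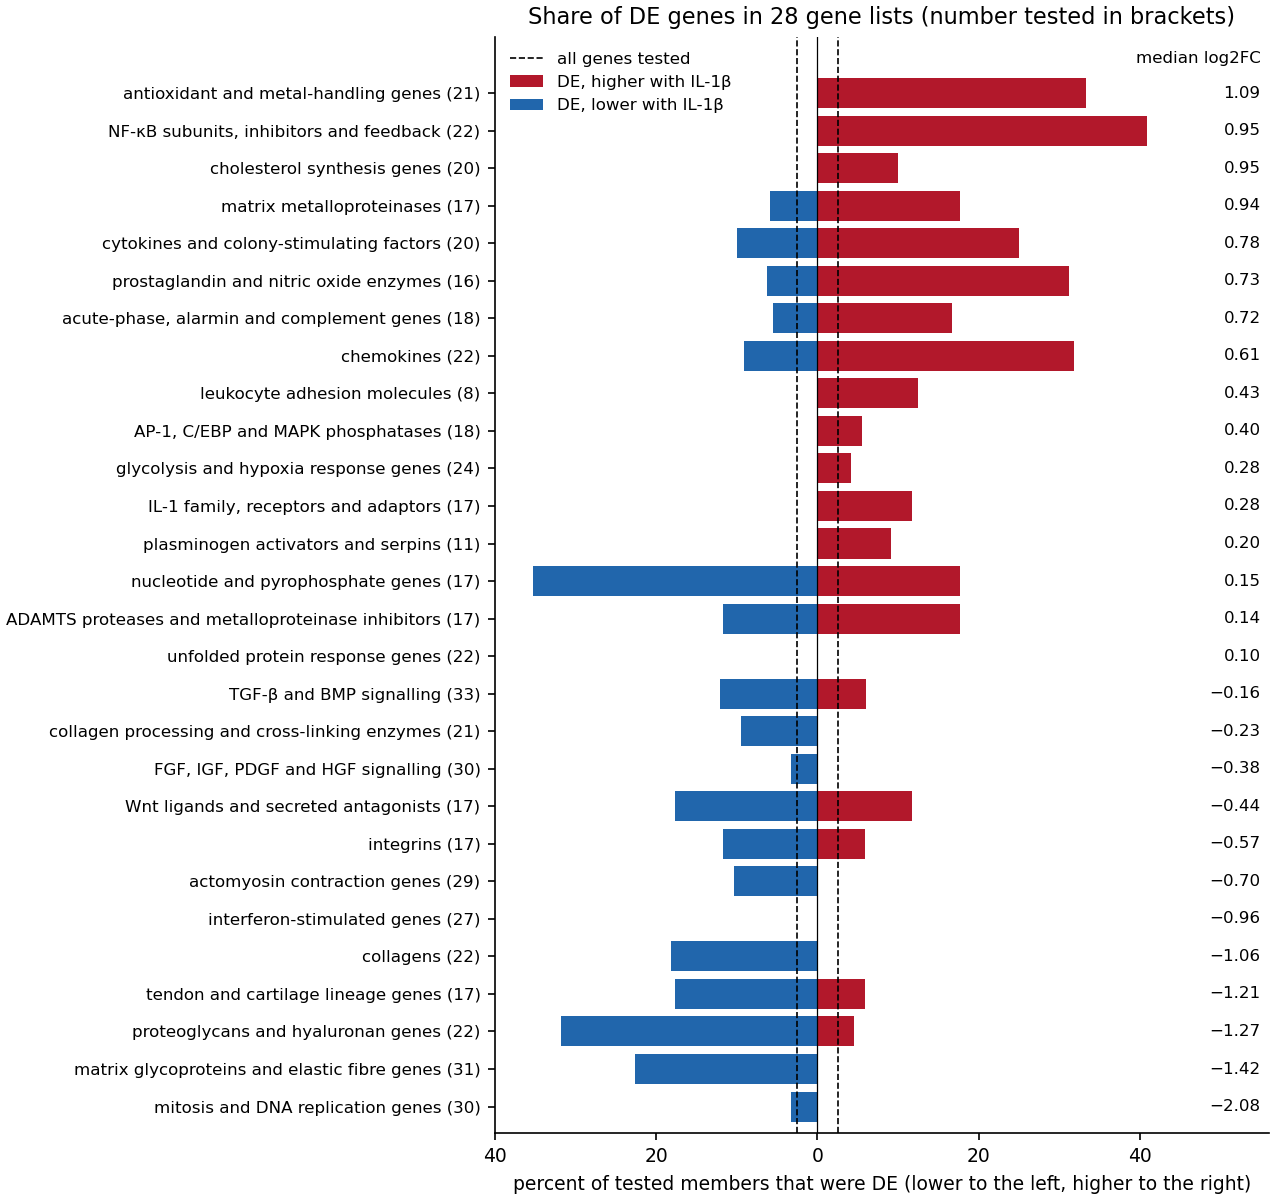
Percent of the tested members of each of 28 gene lists that were DE (x axis), with genes lower with IL-1β to the left in blue and genes higher to the right in red, and the number tested in brackets. Dashed lines mark the 2.59% of all genes tested that were called in each direction, and the column at the right gives the median log2-fold change of each list, from 1.09 for antioxidant and metal-handling genes to −2.08 for mitosis and DNA replication genes.

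Tenocytes raised the RNA of both forms of IL-1 itself, and no receptor or adaptor gene passed the test. In the list of IL-1 family genes, receptors and adaptors 17 of 22 genes were tested, 2 rose and 0 fell, and 7 had an unadjusted p under 0.05, which 22.2% of all genes tested had (median log2-fold change 0.28). IL1A had 0.991, 0 and 0 normalised counts in control and 47.8, 1329.8 and 1422 with IL-1β. Every IL-1β library lay above every control library, with line 6 far below the other lines (adjusted p = 0.0217). IL1B is represented by 2 names, which may share reads. The one called IL1B rose from 2.01, 0 and 0 to 36.4, 77.5 and 91.8 (adjusted p = 0.0212), and the one called IL1B_1 rose from 0, 0.939 and 0 to 564, 851 and 281 (adjusted p = 0.0106). Because the controls were at or near 0, the fitted changes of these genes depend on the pseudocount.

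IL1R1, the signalling receptor, had 2062, 2494 and 5196 normalised counts in control and 2629, 2325 and 5869.6 with IL-1β, so that the groups overlapped (log2-fold change 0.14 ± 0.20, adjusted p = 0.740). The decoy receptor gene IL1R2 had a log2-fold change of 0.92 ± 0.40 (adjusted p = 0.234) and the co-receptor gene IL1RAP one of 0.61 ± 0.26 (adjusted p = 0.227). IRAK2, a kinase that carries the signal on, had 367, 2168 and 1826 in control and 2797, 3677 and 3613 with IL-1β, without overlap, but its adjusted p was 0.0625. SIGIRR, an inhibitory member of the receptor family, was lower in 3 of 3 lines (log2-fold change −0.79 ± 0.23, adjusted p = 0.0912). IL33, an alarmin of the family, differed between lines, with within-line log2 ratios of −1.02, 3.50 and 4.44 in lines 6, 7 and 8 (adjusted p = 0.357, log2-fold change 3.97 without line 6). The antagonist gene IL1RN was listed at 0, 0 and 0 in control and at 0, 1.10 and 2.15 with IL-1β and was not tested.

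The NF-κB list had the largest share of rises of any list, 9 of 22 genes tested, with 0 falls (median log2-fold change 0.95). The genes that rose were subunits, IκB family members, feedback inhibitors, a kinase and an adaptor. TNFAIP3, the ubiquitin-editing inhibitor A20, had 206, 356 and 193 normalised counts in control and 3539, 8949 and 8889 with IL-1β. All 3 lines rose steeply without overlap of the groups (log2-fold change 4.75 ± 0.29, adjusted p = 0.00173). NFKBIZ, an atypical IκB needed for IL6 transcription, rose from 464, 1162 and 922 to 4597, 5982 and 4777 (log2-fold change 2.68 ± 0.24, adjusted p = 0.00446). IKBKE, an IκB-kinase-related kinase, rose from 641, 1006 and 1019.8 to 2584, 4107 and 4406, almost by the same factor in each line (log2 ratios 2.01, 2.03 and 2.11, adjusted p = 0.00214).

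NFKB2, the p100 precursor of the alternative pathway, had a log2-fold change of 1.85 ± 0.18 (adjusted p = 0.00491), NFKBIA, the classical inhibitor, one of 1.68 ± 0.26 (adjusted p = 0.0163) and NFKB1 one of 1.49 ± 0.17 (adjusted p = 0.00652). RELB, the partner of NFKB2, rose by 1.33, TNIP3, a partner of A20, by 2.01 and the adaptor TRAF2 by 1.08. RELA, the p65 subunit itself, had 3142, 4155 and 3295 in control and 3247, 5189.9 and 3421 with IL-1β (log2-fold change 0.14 ± 0.14, adjusted p = 0.638), and the kinase gene CHUK had a log2-fold change of 0.21 (adjusted p = 0.490). TRAF1 was lower in all 3 lines and passed the adjusted p (0.0421) but not the size threshold (log2-fold change −0.64). BIRC3, a target gene of the pathway, ranged from 725, 7268 and 15133 in control to 5281, 14466 and 43527 with IL-1β and was not DE (adjusted p = 0.106). ZC3H12A, an RNase that degrades cytokine mRNA and lies outside the list, rose from 458, 907 and 1031 to 4739.6, 10242 and 8336 with a small spread (log2-fold change 3.29 ± 0.18, adjusted p = 0.00128).

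Of 18 genes for AP-1, C/EBP and MAPK phosphatases 1 was DE. CEBPB, a C/EBP factor of the acute-phase response, rose from 3164, 6681 and 10033 to 12228, 21181 and 17678 (log2-fold change 1.48 ± 0.25, adjusted p = 0.0213), and it was not DE without line 6. JUN had 5325, 6399 and 5528 in control and 6635, 8841 and 3852 with IL-1β, and FOS had 315, 905 and 818 and 211, 4115 and 650.2, with overlapping groups (adjusted p = 0.910 and 0.803). The phosphatase genes DUSP4 and DUSP6, which follow ERK activity, were lower in 3 of 3 lines with log2-fold changes of −2.10 and −1.59 and adjusted p of 0.0510 and 0.0535. Without line 6, 2 genes of this list were higher and 1 was lower.

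Chemokines that attract neutrophils made up 5 of the 10 largest rises. Of 29 chemokine genes 22 were tested, and 7 rose and 2 fell (median log2-fold change 0.61). The median was 0.08 without line 6, 1.51 without line 7 and 2.21 without line 8. CXCL8 had 28.4, 249.5 and 115 normalised counts in the control libraries of lines 6, 7 and 8 and 22788, 252466 and 239411 with IL-1β. The IL-1β values of lines 7 and 8 were close to each other and that of line 6 was lower by a wide margin, as were their controls (log2-fold change 10.20 ± 1.37, adjusted p = 0.0116). CXCL6 rose from 293, 4138 and 2905 to 371137, 1096920 and 1319460 (log2-fold change 9.06 ± 0.70, adjusted p = 0.00294). CXCL2 rose from 2.04, 17.0 and 14.5 to 6529, 38118 and 32902, with log2 ratios of 11.07, 11.05 and 11.05 that were almost equal in the 3 lines (adjusted p = 0.00294). CXCL1 rose from 147, 424 and 328 to 51177, 111091 and 90849, and its relative MIP-2BETA, which is not on the list, from 29.4, 72.3 and 53.9 to 20092, 38073 and 38231 (log2-fold changes 8.19 and 9.28, adjusted p = 0.00393 and 0.00173). CXCL1, CXCL2 and MIP-2BETA are closely related genes, and how their reads were divided among them is uncertain.

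Chemokines for monocytes and lymphocytes were mixed. CCL20, which attracts CCR6 cells, rose from 133, 472 and 185 to 13806, 43089 and 75326 (log2-fold change 7.28 ± 0.60, adjusted p = 0.00341). CCL2, the main monocyte attractant, was already abundant in control at 8523, 14027 and 12117 and rose to 77628, 76182 and 45099.6 (log2-fold change 2.51 ± 0.41, adjusted p = 0.0195). CCL5 rose by 3.19 ± 0.73 (adjusted p = 0.0479) with overlapping groups, since it went from 4.06, 413 and 197 to 71.7, 2046 and 2102 and line 6 stayed below the controls of the other lines. CCL13 fell from 36.3, 160.2 and 586 to 7.07, 8.89 and 4.35 and CCL19 from 27.6, 69.7 and 14.8 to 0, 22.1 and 1.07 (log2-fold changes −4.34 and −3.13, adjusted p = 0.0240 and 0.0444). CCL19 was not DE without line 6.

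The interferon-induced CXCR3 ligands CXCL9, CXCL10 and CXCL11 moved in opposite directions in different lines and were not DE (adjusted p = 0.867, 0.952 and 0.853). CXCL10 had 2.07, 23285 and 36860.1 in control and 404, 5835 and 2199.7 with IL-1β, and CXCL9 had 0, 16528 and 27223 and 102, 6507 and 4257. They went up from almost nothing in line 6 and down from high levels in lines 7 and 8. CXCL12, which retains stem and immune cells, was higher in 3 of 3 lines without overlap but did not pass the test (log2-fold change 1.8 ± 0.59, adjusted p = 0.125).

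Of 25 genes for cytokines and colony-stimulating factors 20 were tested, 5 rose and 2 fell (median log2-fold change 0.78). IL6 had 127, 663 and 216 normalised counts in control and 168090, 136543 and 137101 with IL-1β. The IL-1β values were within a narrow band in the 3 lines and far above every control value (log2-fold change 9.11 ± 0.72, adjusted p = 0.00294). CSF3, the granulocyte colony-stimulating factor, rose from 28.2, 39.7 and 76.9 to 19694, 330466 and 221118, the largest log2-fold change of all genes tested (11.29 ± 1.42, adjusted p = 0.00954). CSF2, the granulocyte and macrophage factor, rose from 0, 9.41 and 2.58 to 5.10, 631 and 239.8 with overlapping groups (adjusted p = 0.0203), and IL7, a lymphocyte survival factor, rose from 11, 19.8 and 13.1 to 47.1, 272 and 208 (log2-fold change 3.20, adjusted p = 0.0116).

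LIF, a cytokine of the IL6 family, was abundant in the controls of lines 7 and 8 and low in that of line 6 (951, 18159 and 26054) and reached 39391, 77155 and 96872 with IL-1β. Its log2-fold change of 3.12 ± 0.70 (adjusted p = 0.0453) was 1.99 without line 6. The death ligand gene TNFSF10 fell from 44.0, 1746 and 2513 to 24.2, 323 and 138 (log2-fold change −2.48, adjusted p = 0.0399, −1.63 without line 8), mainly in the lines whose controls expressed it. TNF was listed at 0 in all controls and at 0, 74.3 and 21.1 with IL-1β and was not DE (adjusted p = 0.112).

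**Figure D4:**
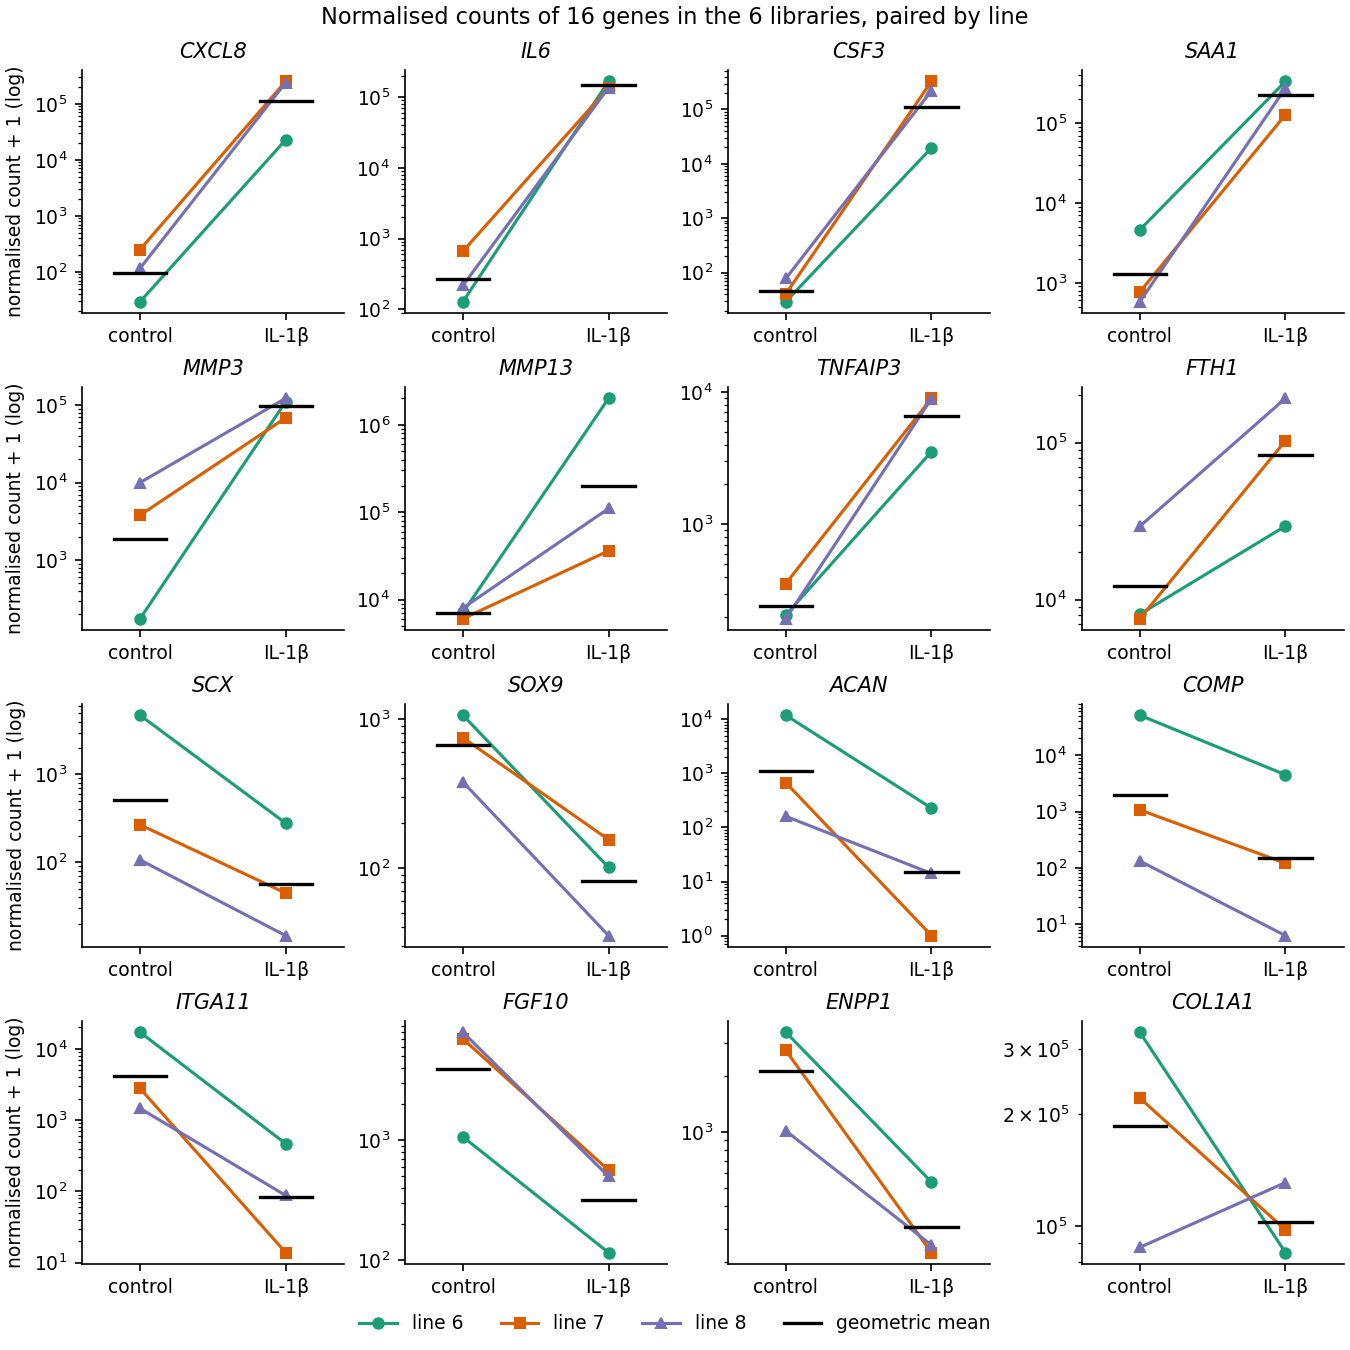
Normalised count + 1 on a log axis (y axis) for 16 genes in the control and IL-1β libraries (x axis), with a coloured line joining the libraries of each tenocyte line and a black bar at the geometric mean. CXCL8, IL6, CSF3, SAA1, MMP3, MMP13, TNFAIP3 and FTH1 are higher and SCX, SOX9, ACAN, COMP, ITGA11, FGF10 and ENPP1 lower with IL-1β in every line, while COL1A1 goes down in lines 6 and 7 and up in line 8.

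Genes of prostaglandin synthesis and response changed in both directions, with 5 of 16 tested members of the prostaglandin and nitric oxide list rising and 1 falling. PLA2G2A, a secreted phospholipase, rose from 26.6, 60.7 and 0.564 to 6377, 217 and 649 (log2-fold change 6.13 ± 1.18, adjusted p = 0.0311). PLA2G4A, the cytosolic phospholipase that frees arachidonic acid, rose from 707, 2501 and 5191 to 8111, 8632 and 13230.2 (log2-fold change 2.22 ± 0.47, adjusted p = 0.0400). The receptor gene PTGER4 rose from 107, 196 and 63.3 to 987, 1674 and 1921 (log2-fold change 3.73, adjusted p = 0.00607). All 3 were without overlap of the groups, and PLA2G2A was the one that differed most between lines, with log2 ratios of 7.85, 1.82 and 8.70, and was not DE without line 6.

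PTGDS, the prostaglandin D synthase, rose from 3.04, 0.951 and 0.867 to 48.4, 68.3 and 59.4, and GCH1, which makes the cofactor of nitric oxide synthase, from 539, 479.7 and 321 to 744, 2089.7 and 1287 (adjusted p = 0.0173 and 0.0422). PTGIS, the prostacyclin synthase, fell from 1164, 699 and 619 to 177, 23.1 and 3.17 (log2-fold change −4.93 ± 0.79, adjusted p = 0.0188). The main inducible enzymes of both pathways did not pass the test. PTGS2, cyclooxygenase 2, had 69.2, 2655 and 13856 in control and 25408, 51595 and 76823 with IL-1β (log2-fold change 5.08 ± 1.23, adjusted p = 0.0573). NOS2 had 23.3, 1549 and 184 and 9845, 4131 and 6317 (log2-fold change 5.06 ± 1.25, adjusted p = 0.0606). Both were higher in 3 of 3 lines without overlap, and the size differed between lines, with log2 ratios of 8.5, 4.28 and 2.47 for PTGS2 and 8.66, 1.41 and 5.10 for NOS2. Without line 6 the log2-fold change of PTGS2 was 3.38.

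Among 18 tested acute-phase, alarmin and complement genes 3 rose and 1 fell. SAA1, serum amyloid A, rose from 4617, 769 and 579 to 337738, 128575 and 277600 and was among the genes with the smallest adjusted p (log2-fold change 7.49 ± 0.49, adjusted p = 0.00173). S100A12, an alarmin of the calgranulin group, rose from 91.0, 26.3 and 0.855 to 854, 2431 and 2328, with control values that differed widely between lines (log2-fold change 6.66 ± 1.17, adjusted p = 0.0232). CFD, complement factor D, rose from 1.03, 0.991 and 159 to 39.1, 63.7 and 516 (adjusted p = 0.0313), and CD55, which shields cells from complement, fell from 139, 24.9 and 14.6 to 3.42, 1.22 and 4.77 (log2-fold change −3.32, adjusted p = 0.0372). CFD and CD55 were not DE without line 6. PTX3, a pentraxin, was higher in 3 of 3 lines without passing the test (log2-fold change 2.85 ± 0.79, adjusted p = 0.0833).

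Of 8 tested leukocyte adhesion molecules 1 was DE. VCAM1, the ligand of the leukocyte integrin VLA-4, rose from 1128, 3111 and 2081 to 3301, 12379 and 26388 (log2-fold change 2.40 ± 0.54, adjusted p = 0.0459). ICAM1 had 474, 4055 and 7673 in control and 2815, 4974 and 6192 with IL-1β, and it overlapped between groups (adjusted p = 0.482). Without line 6, 2 genes of this list were higher and 1 lower, and the log2-fold change of PDPN, podoplanin, was then 2.03.

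Of 21 tested antioxidant and metal-handling genes 7 rose and 0 fell, with a median log2-fold change of 1.09. SOD2, the mitochondrial superoxide dismutase, rose from 9965, 5050.1 and 2595 to 60649.8, 49943 and 56468 (log2-fold change 3.45 ± 0.39, adjusted p = 0.00652). FTH1, the ferritin heavy chain, rose from 8063, 7549 and 29293 to 29396, 102951 and 191756 (log2-fold change 2.78 ± 0.48, adjusted p = 0.0226). FTL, the light chain, rose from 8284, 16515 and 13608 to 21513, 96885 and 52296 (log2-fold change 1.96 ± 0.28, adjusted p = 0.0137). Iron storage and iron uptake genes rose together, since TFRC, the transferrin receptor, went from 6872, 2688 and 1581 to 22868, 12477 and 11934 and SLC11A2, the iron carrier DMT1, from 904, 752 and 776 to 3515, 3398 and 4050.1 (adjusted p = 0.00912 and 0.0194). HMOX1, which releases iron from haem, rose by 2.34 ± 0.48 (adjusted p = 0.0370), and TXNRD1, thioredoxin reductase, by 2.00 ± 0.40 (adjusted p = 0.0336). SLC7A11, the cystine carrier, was unequal between lines with log2 ratios of 0.20, 3.05 and 5.33 (adjusted p = 0.117). Without line 6, 10 genes of the list were higher and 1 was lower, and the log2-fold change of SLC7A11 was 4.19.

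MMP3, MMP8 and MMP13 rose, MMP16 fell and the other metalloproteinases did not pass the test. Of 17 tested matrix metalloproteinases 3 rose and 1 fell (median log2-fold change 0.94). MMP3, stromelysin 1, had 174, 3785 and 9976 normalised counts in control and 110611, 68399 and 122147 with IL-1β. The IL-1β values differed far less between lines than the controls, of which line 6 was much the lowest (log2-fold change 5.70 ± 1.01, adjusted p = 0.0239). MMP13, collagenase 3, rose from 7104, 6038 and 7991 to 2009890, 36092 and 110085. Its controls were alike and line 6 reached a level far above the others, so the log2-fold change of 4.84 ± 0.99 (adjusted p = 0.0361) was 3.18 without line 6. MMP8, the neutrophil collagenase, rose from 9.92, 12.1 and 15.7 to 286, 1395 and 3096 (log2-fold change 6.33 ± 0.67, adjusted p = 0.00613).

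MMP16, a membrane-type enzyme, fell from 669, 977 and 1163 to 105, 286 and 489 (log2-fold change −1.89, adjusted p = 0.0390, not DE without line 6). MMP1, interstitial collagenase, had 28, 67946 and 260673 in control and 48288, 396819 and 593974 with IL-1β. It was higher in 3 of 3 lines by very different factors, with log2 ratios of 10.70, 2.55 and 1.19, and was not DE (adjusted p = 0.131). MMP2 and MMP14, which act together on the cell surface, were higher in 3 of 3 lines without overlap and were not DE either (log2-fold changes 1.42 and 0.94, adjusted p = 0.157 and 0.185).

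ADAMTS4, ADAMTS5 and ADAMTS9 rose while ADAMTS6 and ADAMTS14 fell. Of 17 tested ADAMTS proteases and metalloproteinase inhibitors 3 were higher and 2 lower, and the median of 0.14 turned to −0.04 with libraries scaled to equal sums and to −0.35 without line 8. ADAMTS4, an aggrecan-cutting enzyme, rose from 295, 524 and 618 to 1233, 2583 and 6137 (log2-fold change 2.56 ± 0.47, adjusted p = 0.0273). ADAMTS5, the other main aggrecanase, rose by 1.17 ± 0.24 (adjusted p = 0.0381) and ADAMTS9 by 1.6 ± 0.33 (adjusted p = 0.0382). ADAMTS6 fell from 572, 382 and 139 to 33.0, 64.1 and 49.5 and ADAMTS14, a procollagen amino-propeptidase, from 55.2, 69.9 and 34.4 to 12.6, 17.9 and 9.47 (adjusted p = 0.0375 and 0.0373). Of these 5 genes only ADAMTS4 was still DE without line 6, and of the list 2 genes were then higher and 2 lower. The inhibitor genes TIMP1 and TIMP3 had log2-fold changes of −0.48 and 0.51 with overlapping groups (adjusted p = 0.539 and 0.727).

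Of 11 tested plasminogen activators and serpins 1 was DE. SERPINB2, the inhibitor PAI-2, rose from 5.0, 1256 and 587 to 15.1, 10989 and 6379, with lines 7 and 8 at levels that line 6 did not approach (log2-fold change 2.66 ± 0.48, adjusted p = 0.0246). TFPI, the tissue factor pathway inhibitor, passed the adjusted p (0.0188) but not the size threshold (log2-fold change 0.88). The line medians of the list were −0.89, 1.0 and 0.83, and its median log2-fold change of 0.20 was 1.03 without line 6 and −0.09 without line 8. Without line 6, 3 genes of the list were higher and 1 lower.

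Aggrecan, lubricin and several small leucine-rich proteoglycans fell, while decorin and lumican did not. Of 22 tested proteoglycans and hyaluronan genes 7 fell and 1 rose (median log2-fold change −1.27), and without line 6 the numbers were again 7 and 1. ACAN, aggrecan, had 11864, 670.5 and 159.5 normalised counts in control and 226, 0 and 13.1 with IL-1β. The lines started at very different levels, and each ended far lower (log2-fold change −6.20 ± 1.07, adjusted p = 0.0224). ASPN, asporin, fell from 35912, 1587 and 813 to 2658, 2.32 and 5.49, and PRG4, the lubricant lubricin, from 417, 3575 and 439 to 11.3, 25.4 and 3.19 (log2-fold changes −6.54 ± 1.13 and −6.30 ± 0.70, adjusted p = 0.0226 and 0.00652). PRG4 was without overlap, while the line 6 value of ASPN with IL-1β exceeded the controls of lines 7 and 8.

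PRELP fell from 19003, 9240.2 and 5988 to 7085, 221 and 86.9, much more in lines 7 and 8 than in line 6 (log2 ratios −1.42, −5.38 and −6.09, adjusted p = 0.0355). The leucine-rich proteoglycans OGN (osteoglycin), OMD (osteomodulin) and PODN (podocan) fell, with log2-fold changes of −4.52, −4.71 and −3.36 (adjusted p = 0.0405, 0.0309 and 0.0174). TNFAIP6, which moves heavy chains onto hyaluronan, was the member that rose, from 2478, 1821 and 1788 to 17702, 24351 and 20111 (log2-fold change 3.36 ± 0.29, adjusted p = 0.00393). DCN, decorin, had 55627, 29947 and 42147 in control and 170170, 85794 and 135436 with IL-1β, and LUM, lumican, had 45613, 38096 and 29061 and 135681, 72490 and 123743. Both were higher in 3 of 3 lines without overlap but were not DE (log2-fold changes 1.61 ± 0.54 and 1.53 ± 0.48, adjusted p = 0.137 and 0.113). VCAN, versican, had a log2-fold change of 1.78 ± 0.52 (adjusted p = 0.0955) and BGN, biglycan, one of 0.07 ± 0.40 (adjusted p = 0.947).

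Collagens of basement membranes and their surroundings fell, and the fibrillar type I and type V genes did not pass the test. Of 22 tested collagen genes 4 fell and 0 rose, and 20 of 22 had a lower mean, against 50.7% of all genes tested (median log2-fold change −1.06). By line, 19 of the 22 were lower with IL-1β in line 6, 22 in line 7 and 14 in line 8. COL15A1, a collagen between basement membrane and stroma, fell from 33208, 48247 and 63445 to 4562, 13478 and 8624 (log2-fold change −2.53 ± 0.28, adjusted p = 0.00652). COL18A1 fell from 4839.6, 6760.1 and 822 to 659.5, 694 and 222 (log2-fold change −2.68 ± 0.39, adjusted p = 0.0143). COL4A1 and COL4A2, the main chains of basement membrane collagen, fell with log2-fold changes of −1.43 and −1.18 (adjusted p = 0.0245 and 0.0390) and were not DE without line 6.

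COL1A1, the main chain of tendon collagen, had 332642, 221346 and 87792 in the control libraries of lines 6, 7 and 8 and 84945, 97816 and 131132 with IL-1β. It was lower in lines 6 and 7 and higher in line 8, with a log2-fold change of −0.86 ± 0.72 (adjusted p = 0.558). COL1A2 did the same, with log2 ratios of −1.20, −1.0 and 0.84 (adjusted p = 0.755). COL5A1, which starts fibril assembly, had log2 ratios of −2.16, −1.23 and 0.06 and COL12A1, a fibril-associated collagen, −2.06, −2.49 and −0.53 (adjusted p = 0.281 and 0.107).

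Matrix glycoproteins and elastic fibre genes fell in 7 of 31 cases with 0 rises (median log2-fold change −1.42, −0.72 without line 7). By line, 24 of the 31 were lower with IL-1β in line 6, 28 in line 7 and 20 in line 8. COMP, cartilage oligomeric matrix protein, had 51392, 1069 and 131 normalised counts in control and 4497, 119 and 5.24 with IL-1β. It dropped steeply in each line from very unequal starting levels, and the groups overlapped (log2 ratios −3.51, −3.15 and −4.40, log2-fold change −3.69 ± 0.64, adjusted p = 0.0228). TNC, tenascin C, fell from 56084, 71309 and 39094 to 13266, 7261 and 15121 and THBS2, thrombospondin 2, from 55091, 63967 and 62392 to 2202, 5599 and 17791, both without overlap (log2-fold changes −2.25 ± 0.40 and −3.32 ± 0.58, adjusted p = 0.0241 and 0.0234). ABI3BP, a matrix protein that binds integrins and collagen, fell from 3613, 5303 and 4886 to 384, 188 and 594 (log2-fold change −3.69 ± 0.49, adjusted p = 0.0114).

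ELN, elastin, fell from 1079, 746 and 431 to 172, 15.4 and 40.9, and the microfibril gene MFAP4 from 1776, 116 and 204 to 262, 11 and 75.3 (adjusted p = 0.0339 and 0.0490). FNDC1 fell from 1777, 13.3 and 8.63 to 27.6, 1.10 and 0 (log2-fold change −4.0, adjusted p = 0.0407). TNC, FNDC1 and MFAP4 were not DE without line 6, and of the list 1 gene was then higher and 6 were lower. FBLN1, fibulin 1, had 19367, 8253 and 24059.8 and 1751, 618 and 728 without overlap and stood just outside the threshold (log2-fold change −4.08 ± 0.96, adjusted p = 0.0518). FN1, fibronectin, behaved like COL1A1 with log2 ratios of −1.68, −1.01 and 0.71 (adjusted p = 0.546).

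Of 21 tested collagen processing and cross-linking enzymes 2 fell and 0 rose, and without line 6 the numbers were 3 and 1. TLL1, a protease that trims procollagen, fell from 1111, 910.1 and 37.8 to 72.3, 38.2 and 9.11 (log2-fold change −3.47, adjusted p = 0.0178), and P3H2, a prolyl hydroxylase of basement membrane collagen, from 236, 325 and 96.7 to 27.5, 59.8 and 6.41 (log2-fold change −3.07, adjusted p = 0.0274). LOX, the main cross-linking oxidase, had 29026, 3759.7 and 2015 in control and 3907, 3222 and 6782 with IL-1β and again opposed line 6 to line 8 (adjusted p = 0.808).

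Of 17 tested tendon and cartilage lineage genes 3 fell and 1 rose. Of the 17 genes 9 were higher with IL-1β in line 6, 5 in line 7 and 9 in line 8 (line medians 0.02, −0.78 and 0.28). Its median log2-fold change of −1.21 was −0.38 without line 8, −0.68 without line 7 and −0.16 with the filter of 10 in all 3 libraries of a group. SCX fell from 4720, 266 and 105 to 278, 43.5 and 13.6 (log2-fold change −3.18 ± 0.55, adjusted p = 0.0223). The groups overlapped because line 6 started and ended above the others, and the factor of change was large in each line (log2 ratios −4.08, −2.59 and −2.87). SOX9, shared by tendon and cartilage progenitors, fell from 1056, 746 and 376 to 99.8, 154 and 34.2 without overlap (log2-fold change −3.03 ± 0.37, adjusted p = 0.00917). SOX5, a partner of SOX9, rose from 112, 37.7 and 30.0 to 603, 356 and 695 (log2-fold change 3.37 ± 0.50, adjusted p = 0.0144). MKX was lower in lines 6 and 7 and close to its low control level in line 8 (log2 ratios −1.99, −3.73 and 0.52, adjusted p = 0.209), and EGR1 had log2 ratios of 0.20, −0.51 and −3.31 (adjusted p = 0.453).

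Of 29 tested actomyosin contraction genes 3 fell and 0 rose, and 28 of 29 had a lower mean, against 50.7% of all genes tested (median log2-fold change −0.70, −0.44 without line 6). By line, 28 of the 29 were lower with IL-1β in line 6, 21 in line 7 and 20 in line 8. LMOD1, leiomodin, fell from 2903, 2102 and 1137 to 339, 584 and 256 (log2-fold change −2.36 ± 0.40, adjusted p = 0.0214). SYNPO2, which bundles actin, and PXN, paxillin of focal adhesions, fell with log2-fold changes of −3.67 and −1.01 (adjusted p = 0.0490 and 0.0239). TAGLN, transgelin, had 66464, 35602 and 20108 in control and 13516, 16045 and 5362 with IL-1β (adjusted p = 0.198). ACTA2, smooth muscle actin, had 49745, 19951 and 6616 and 5149, 17534 and 8808, lower mainly in line 6 (adjusted p = 0.609). VCL, vinculin, passed the adjusted p (0.0437) with a log2-fold change of −0.94, under the size threshold. MRVI1, a regulator of smooth muscle calcium release that is not on the list, fell from 932, 1841 and 1357 to 191, 199.8 and 181 (log2-fold change −2.79 ± 0.24, adjusted p = 0.00393). The sum of the 6 mural markers given above was also lower with IL-1β, and MYH11 belongs to both groups. Among those markers RGS5 was higher in line 8 (20.7 and 30.5) and NOTCH3 in line 6 (127 and 140). Without line 6, 5 genes of the actomyosin list were lower.

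Of 17 tested integrins 2 fell and 1 rose, and without line 6 the numbers were 3 and 2. ITGA11, the collagen receptor of fibroblasts, fell from 17117, 2787 and 1462 to 467, 12.8 and 86.6 without overlap (log2-fold change −5.64 ± 0.95, adjusted p = 0.0214). ITGA6, a laminin receptor chain, fell by 1.32 on the log2 scale (adjusted p = 0.0237, not DE without line 6). ITGB8, which frees latent TGF-β, rose from 219, 223 and 315 to 3305, 1645 and 8046 (log2-fold change 3.82 ± 0.42, adjusted p = 0.00652). ITGB1, the common chain of collagen receptors, had a log2-fold change of −0.26 ± 0.32 (adjusted p = 0.706).

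Of 33 tested TGF-β and BMP signalling genes 2 rose and 4 fell. BMP2, a bone-forming ligand, rose from 227, 146 and 568 to 595, 1039 and 3209.6 (log2-fold change 2.24 ± 0.29, adjusted p = 0.0105), and TGFB2 rose from 674, 281 and 318 to 1453, 942 and 1044 (log2-fold change 1.52 ± 0.24, adjusted p = 0.0181). The antagonist genes CHRDL2 and GREM1, which bind BMPs, fell from 76.8, 190.0 and 1012 to 1.35, 18.9 and 8.44 and from 15097, 7574 and 3649 to 2134, 2146 and 1426 (adjusted p = 0.0141 and 0.0150). INHBB, an activin subunit, and LTBP2, a latent TGF-β binding protein, fell with log2-fold changes of −2.10 and −2.17 (adjusted p = 0.0116 and 0.0385, LTBP2 not DE without line 6). TGFB1 had 777, 1169.6 and 772 and 799.8, 779 and 756 with overlapping groups (adjusted p = 0.823).

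Of 30 tested FGF, IGF, PDGF and HGF genes 1 was DE. FGF10, a mesenchymal growth factor for epithelia, fell from 1063, 7002 and 7961 to 114, 559 and 496. The fall was large in each of the 3 lines (log2 ratios −3.21, −3.64 and −4.0). With a log2-fold change of −3.62 ± 0.18, FGF10 had the smallest adjusted p of all genes that fell (0.00128). Without line 6, 7 genes of the list were lower, and the log2-fold changes were then −3.24 for FGF2 and −3.39 for FGFR2. HGF had log2 ratios of 4.09, 0.55 and −1.73 (adjusted p = 0.656), and IGF1 had 2.12, −1.09 and 1.94 (adjusted p = 0.393). LRIG1, a brake on growth factor receptors outside the list, fell from 2669, 2244 and 2838 to 1109, 765 and 984 (log2-fold change −1.45 ± 0.14, adjusted p = 0.00504).

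Of 17 tested Wnt ligands and secreted antagonists 2 rose and 3 fell. The ligand genes WNT2 and WNT9A rose from 4.03, 51.1 and 77.8 to 9.22, 757 and 1628 and from 372, 201 and 188 to 1878, 376 and 659 (adjusted p = 0.0419 and 0.0232, WNT9A not DE without line 6). The antagonist genes SFRP4 and SFRP2 fell from 1028, 235 and 135 to 32.8, 6.58 and 2.11 and from 1285, 148 and 59.6 to 71.4, 33.1 and 8.53 (log2-fold changes −5.11 and −2.98, adjusted p = 0.0184 and 0.0229). DKK2, another antagonist, had 10.1, 47.0 and 19.1 in control and was listed at 0 in all 3 IL-1β libraries (adjusted p = 0.0155), where an exact 0 can be a failed estimate. The DE genes that rose were ligands and those that fell were antagonists, but 12 of the 17 tested members were not DE.

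Genes of extracellular nucleotides and pyrophosphate changed in both directions, with 3 of 17 tested genes higher and 6 lower. When line 6 was left out, 4 were higher and 3 lower. The median of 0.15 turned to −0.03 with libraries scaled to equal sums and to −0.15 without line 6, and it was 0.25 without line 8. ENPP1, which makes pyrophosphate from ATP, fell from 3419, 2729 and 1011 to 536, 223 and 245 (log2-fold change −2.77 ± 0.29, adjusted p = 0.00604). NT5E, which makes adenosine from AMP, fell from 20395, 6767 and 9616 to 3349.5, 2509 and 3016 (log2-fold change −1.90 ± 0.27, adjusted p = 0.0132). P2RX7, an ATP-gated channel, fell from 188, 514 and 963 to 82.0, 83.7 and 78.5 and reached nearly the same value in each line (adjusted p = 0.0294). ENPP4, ENPP5 and the pyrophosphate carrier ANKH fell with log2-fold changes of −2.33, −1.87 and −1.51 (adjusted p = 0.0354, 0.0358 and 0.0336) and were not DE without line 6.

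The adenosine receptor genes ADORA2A and ADORA2B rose from 19.8, 52.0 and 9.89 to 142, 1242 and 1103 and from 479, 768 and 450.4 to 1482, 4701 and 2900.5 (log2-fold changes 4.67 and 2.31, adjusted p = 0.0467 and 0.0163). ALPL, the alkaline phosphatase that splits pyrophosphate, rose from 270.4, 18338 and 21509.6 to 1877, 61635 and 63684, at a much lower level in line 6 than in the other lines (log2-fold change 2.04 ± 0.29, adjusted p = 0.0125). ENPP2, autotaxin, which makes the lipid mediator LPA, had log2 ratios of 4.64, −0.82 and 3.73 and was not DE (log2-fold change 2.52 ± 0.96, adjusted p = 0.181). Its direction differed between lines, with 6.20, 26.3 and 35.0 in control and 179, 14.5 and 476 with IL-1β.

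All 20 tested cholesterol synthesis genes had a higher mean with IL-1β, as had 49.3% of all genes tested. Of the 20 genes 14 had an unadjusted p under 0.05, against 22.2% of all genes, and 2 were DE (median log2-fold change 0.95, with line medians of 0.66, 0.77 and 1.31). FDPS, farnesyl diphosphate synthase, rose from 1423, 2992 and 1964 to 3166, 8542 and 5938 (log2-fold change 1.42 ± 0.32, adjusted p = 0.0462), and INSIG1, the sterol sensor partner, from 2087, 2194 and 2563 to 4576, 4403 and 5362 (log2-fold change 1.07 ± 0.18, adjusted p = 0.0223). HMGCS1, an early enzyme of the pathway, had a log2-fold change of 1.30 (adjusted p = 0.101). Without line 6, 5 genes of the list were higher.

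Of 24 tested glycolysis and hypoxia genes 1 was DE, PFKFB3, which sets the pace of glycolysis and rose from 4496, 6260.2 and 3368 to 19006, 15689 and 9712 (log2-fold change 1.64 ± 0.28, adjusted p = 0.0226). LDHA had a log2-fold change of 0.22 (adjusted p = 0.772), and the glucose carrier gene SLC2A1 one of 1.16 with log2 ratios of 1.07, 0.21 and 2.19 (adjusted p = 0.171). Without line 6, 2 genes of the list were higher. Of 22 unfolded protein response genes 0 were DE by limma and 0 had an unadjusted p under 0.05 (median log2-fold change 0.10, −0.08 with equal sums). With IL-1β 2 of them were higher in line 6, 20 in line 7 and 21 in line 8 (line medians −0.53, 0.44 and 0.45), and the median was 0.44 without line 6. HSPA5, the main chaperone, had 24779.9, 21829.6 and 15034 in control and 14153, 28877 and 22978 with IL-1β.

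The change of mitosis, interferon-stimulated and MHC class II genes also differed widely between the lines. Of 30 tested mitosis and DNA replication genes 30 had a lower mean, as had 50.7% of all genes tested, and 23 had an unadjusted p under 0.05, against 22.2% of all genes, but 1 was DE (median log2-fold change −2.08, −0.96 without line 6 and −3.17 without line 7). The median within-line log2 ratio was −4.10 in line 6, −0.17 in line 7 and −1.91 in line 8. CENPF, a kinetochore protein, fell from 1627, 1012 and 734 to 37.3, 279 and 185 (log2-fold change −3.08 ± 0.66, adjusted p = 0.0413, −1.92 without line 6). MKI67, the proliferation marker Ki-67, had 1994, 1242 and 1251 in control and 67.4, 713 and 271 with IL-1β, and TOP2A, topoisomerase II alpha, had 3489.9, 2311 and 2032 and 129, 1446 and 492 (adjusted p = 0.0837 and 0.0881). Both were lower in 3 of 3 lines without overlap. AURKB, a mitotic kinase, was lower in lines 6 and 8 and higher in line 7 (log2 ratios −5.47, 0.64 and −1.72, adjusted p = 0.267).

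Of 27 tested interferon-stimulated genes 0 were DE by limma and 0 had an unadjusted p under 0.05. When line 6 was left out, 1 of them was DE and lower. Their median within-line log2 ratio was 0.90 in line 6, −0.48 in line 7 and −3.18 in line 8. In line 6, 24 of the 27 had a higher value with IL-1β, against 6 in line 7 and 0 in line 8. IFIT3 had 44.6, 2059 and 3887 in control and 329, 1211 and 123 with IL-1β (log2 ratios 2.85, −0.77 and −4.97, adjusted p = 0.75). ISG15, a ubiquitin-like modifier, had 309.7, 5849 and 9055 and 797, 4195 and 441, and IRF1, an interferon regulatory factor, had 548, 9938 and 14697 and 1565, 8109.8 and 3242 (adjusted p = 0.565 and 0.836). The control values of lines 7 and 8 lay far above that of line 6 for each of these genes.

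The 5 genes with the largest mean change among those that were not DE and whose lines differed in direction were DRA, LOC100061127, DQB, CD74 and CIITA. All of the 4 with a symbol belong to MHC class II antigen presentation. DRA, an MHC class II chain, was listed at 0, 8812 and 7872 in control and at 4.06, 53.8 and 37.4 with IL-1β, and CD74, the invariant chain, at 0, 19305 and 24092 and 5.84, 153 and 126. In lines 7 and 8 both were far lower with IL-1β, while line 6 was listed at 0 in control, where an exact 0 can be a failed estimate, and low with IL-1β. CIITA was listed at 0, 1261 and 1784 in control and at 3.14, 12.9 and 16.8 with IL-1β. In the 3-line fit the adjusted p of these 5 genes lay between 0.111 and 0.321. Without line 6 each passed the test, with log2-fold changes from −5.95 for DQB to −7.50 for DRA. These genes were chosen for lines that differed in direction, and line 6 was the one that differed. Passing without it therefore follows in part from the choice. In the libraries with IL1Ra, DRA was listed at 0, 13026 and 3395 and CD74 at 0, 40609 and 13401.

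**Figure D5:**
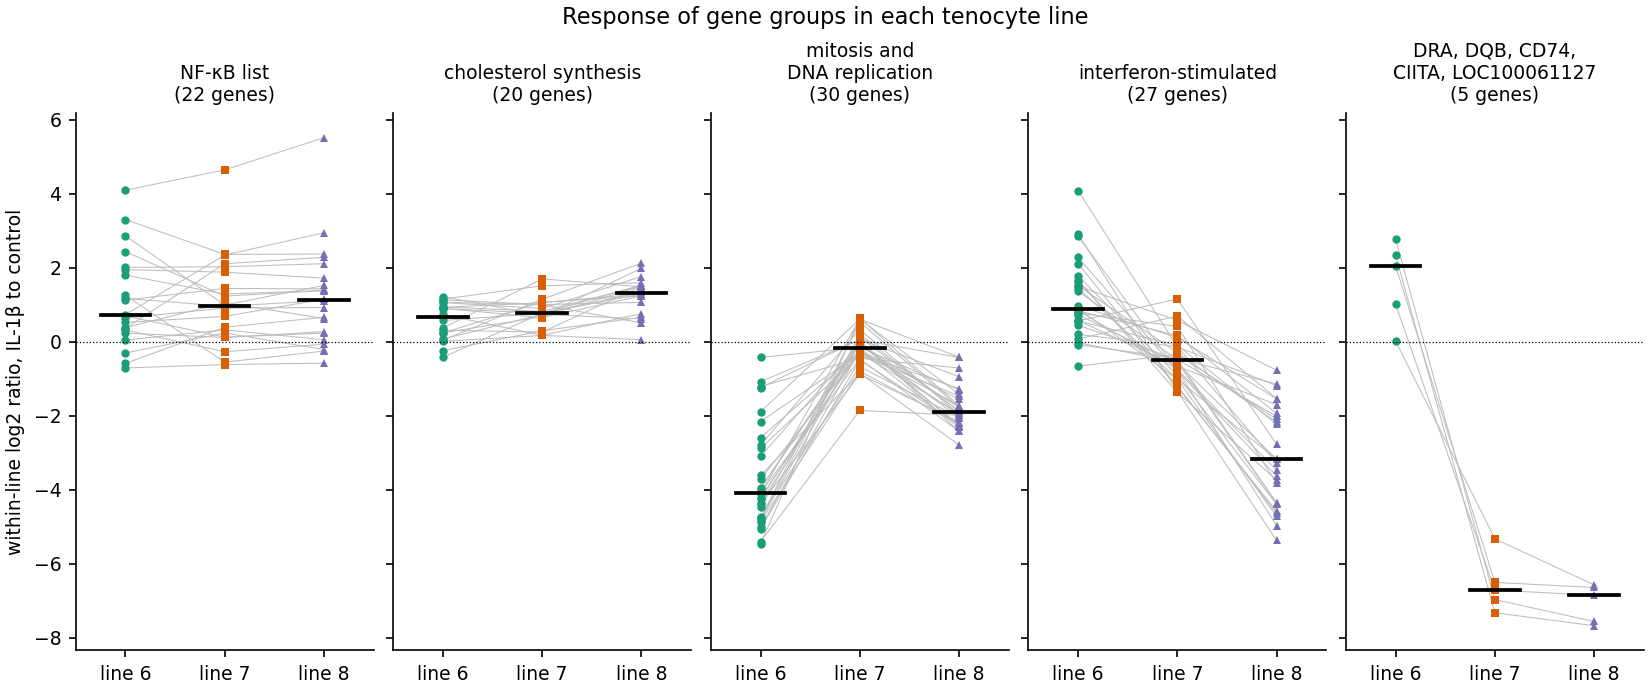
Within-line log2 ratio of IL-1β to control (y axis) in lines 6, 7 and 8 (x axis) for 5 gene groups, 1 point per gene joined by grey lines, with black bars at the median of each line. The NF-κB and cholesterol synthesis lists lie at similar heights in the 3 lines, whereas mitosis genes are lowest in line 6, interferon-stimulated genes lowest in line 8, and DRA, DQB, CD74, CIITA and LOC100061127 far below 0 in lines 7 and 8 and at or above 0 in line 6.

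The test favours genes whose lines moved alike, so the spread between lines is a description of the genes it called. The median size of the within-line log2 ratio over the 865 genes was 1.96 in line 6, 2.11 in line 7 and 2.13 in line 8. The largest rise was in line 6 for 141 genes, in line 7 for 138 and in line 8 for 153, and the largest fall in line 6 for 149, line 7 for 143 and line 8 for 141. The range of the ratio between lines had a median of 1.20 for the genes that rose, 1.30 for those that fell and 0.975 for all genes tested. For 232 DE genes the range exceeded 2 log2 units.

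The 5 DE genes with the widest range were S100A12, PLA2G2A, FDCSP, LOC111769795 and MS4A7, and all were among the genes that rose. FDCSP, a secreted peptide of follicular dendritic cells, had 2.07, 17.1 and 16.7 in control and 39.9, 19950.4 and 4573 with IL-1β (log2 ratios 3.74, 10.11 and 8.01). MS4A7, a tetraspanning membrane protein known from macrophages, was listed at 0 in all controls and at 14.6, 607 and 983 with IL-1β. In the same IL-1β libraries the leukocyte markers AIF1, CD3E, CD79A and TYROBP were at 0 and PTPRC was at 0, 5.67 and 6.46. CD68 was at 181, 1769 and 665 there, and CD14 was listed at 1158, 1262 and 0. Which cells held the RNA of MS4A7 was not tested. LOC111769795 had 0.996, 274 and 136 and 4283, 9177 and 12733. In S100A12, PLA2G2A, FDCSP and LOC111769795 the lines differed in the control value as well as in the value with IL-1β.

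The size threshold divided genes with nearly equal values. Just inside it were PXN, PPFIBP1 and CDK5RAP2, with log2-fold changes of −1.01, −1.01 and −1.01, and just outside were KCNMA1, IL10RB and LOC106780989, with −1.0, 1.0 and 1.0. Adding the 154 genes that passed the adjusted p but not the size threshold would give 528 higher and 491 lower.

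The first batch holds the same contrast in 5 other lines (10 libraries), normalised in a separate table, so that values are set side by side with no test between them. There 2386 of 14719 genes tested were DE (16.2%) in the same kind of blocked fit. For lines 6 to 8, 834 of the 865 DE genes were tested in the first batch, 821 had the same sign in at least 4 of its 5 lines, and 31 were not tested. The same share was not counted over all genes tested in both batches, so this number has no general level beside it. In the first batch 9 of 22 NF-κB genes, 11 of 20 chemokines and 3 of 20 cholesterol synthesis genes were DE, all of them higher. There 14 of 21 collagens, 20 of 29 matrix glycoproteins and 15 of 30 mitosis genes were DE, all of them lower. Of all 14478 genes tested in both batches, 863 were DE and higher and 1445 DE and lower in the first batch.

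Among single genes, COL1A1 had a log2-fold change of −1.83 in the first batch (adjusted p = 0.00362) beside −0.86 here, and LOX had −2.32 (adjusted p = 0.000809) beside −0.45. PTGS2 had 6.18 (adjusted p = 0.00439) beside 5.08, and NOS2 had 4.83 (adjusted p = 0.00658) beside 5.06. MKX had −3.95 (adjusted p = 0.000696) beside −1.73. These 5 genes were DE in the 5 lines of the first batch and not in the 3 lines here, and whether the batches differ was not tested. Interferon-stimulated genes had a median log2-fold change of 0.76 there and −0.96 here, where the median was 0.38 without line 8.

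The means of 4 DE genes had the opposite sign in the first batch, and they are named after their values were seen. DNAH11, an axonemal dynein, RGS7, a G protein regulator, and TMEM178B fell here with log2-fold changes of −1.28, −1.5 and −1.66 and had 0.24, 0.31 and 0.61 in the first batch (adjusted p there 0.712, 0.297 and 0.198). VASH1, the angiogenesis inhibitor vasohibin, rose by 1.07 here and had −0.02 there (adjusted p = 0.853). DNAH11, RGS7 and VASH1 were not DE without line 6. For 0 of the 865 genes did all 5 lines of the first batch go against the direction of lines 6 to 8.

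The libraries with IL-1β and IL1Ra share the controls used here, so their values are only set beside those of IL-1β. In lines 6, 7 and 8 they had 27.8, 20896 and 25689 normalised counts of CXCL8, 13776, 201720 and 119246 of IL6, 292668, 8117 and 39639 of MMP13 and 2744, 1418 and 1344 of ENPP1.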

How the data were processed

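RNA of 9 second-batch libraries was sequenced, 3 lines in 3 conditions. Per the study's methods, the authors quantified reads with Salmon on the EquCab3.0 transcriptome and imported gene values into R. Per the labels' processing notes the tools were FastQC, MultiQC, Salmon, R 4.2.1 and DESeq2 1.36. The deposited values are DESeq2-normalised counts (the unit is a signal, not raw reads), in a separate table for each batch. Low values were whole after division by their smallest step for 45.9% to 68.6% of values (tolerance 0.03), so reads could not be recovered and no count model was used. The raw depth is thus unknown, and the sums given are of normalised counts.

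Values were analysed as log2(normalised count + 1) with limma 3.58.1 in R 4.3.3 (lmFit, eBayes with trend), with condition and tenocyte line as terms, on all 9 libraries. Tables were made with Python 3.11.15 and pandas 2.3.3. A gene was tested when 3 or more libraries held 10 or more normalised counts of it, p-values were adjusted by the Benjamini-Hochberg method over all of them, and DE meant an adjusted p under 0.05 and a log2-fold change of at least 1 in size. Lines come from the line code in the sample titles, each line being 1 horse. Deviations from the condition means correlated between libraries of the same line (r 0.535 to 0.794 over 9 pairs), against r of −0.625 to 0.249 over 18 pairs between lines. Within a condition the deviations of the 3 lines sum to 0, so the values between lines are in part pushed below 0 by construction. On simulated data with 200 genes of this comparison changed by 2 on the log2 scale among 16705, the fit with the block recovered 52% with 3 false calls, and the fit without it 30% with 1 false call. The simulated spread was independent between genes, whereas in the data whole gene groups moved differently by line. These false calls therefore do not measure the share of errors among the real calls. The first batch was fitted alike with its own filter of 10 in at least 5 libraries.

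The genes, the 28 lists and the markers were chosen with earlier results of these data known. Named genes were up to 4 DE members of each list by size and up to 4 further members, the 10 largest rises and falls with a symbol and 3 of each with LOC names, the 5 smallest adjusted p in each direction, the 5 widest ranges between lines, the 5 largest changes that were not DE and differed in direction, and genes the study names. Further DE members of the lists and members near a threshold were named after their values were seen, and a few members are not reported here. Alternatives were other pseudocounts, filters, scalings, variance models, thresholds and fits, and leaving out each line. Of the gene names 80.2% matched a RefSeq gene table of a newer assembly and 25 were spreadsheet dates. No coordinates or sequences were used.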

Additional observations from a re-analysis of the deposited data

Results flagged for a closer look

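MFAP2, an elastic microfibril gene, had a log2-fold change of 0.11 (adjusted p = 0.887 by limma) in lines 6 to 8, with within-line log2 ratios of 0.0054, 0.0105 and 0.320. In the first batch its log2-fold change was −0.35 (adjusted p = 0.00849) and it was lower in 5 of 5 lines. The ratios of lines 6 to 8 were all above 0 and those of the first batch all below it, but in lines 6 and 7 they were practically 0 and smaller than the shift of −0.18 that scaling to equal sums brings. The difference was not tested, since the batches were normalised separately. Groups of 3 libraries were not tested for outlying samples.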

How the results depend on the processing

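None of the named DE genes changed direction under the alternatives that were run, which was largely fixed in advance. Each moved in the same direction in 3 of 3 lines, so leaving out a line could not turn its mean. Other variance models and thresholds leave the log2-fold change as it was. Without the replicate block 57 genes were DE, 45 higher and 12 lower, with 11 list members. With the replicate block on the 6 control and IL-1β libraries alone there were 373, of which 194 were higher and 179 lower, with 68 list members. Without the variance trend there were 558 with 263 lower and 69 list members, and at an adjusted p under 0.01 there were 136, 94 higher and 42 lower, with 24 list members. Leaving out 1 line gave 0 to 1236 DE genes, 0 to 588 higher, 0 to 648 lower and 0 to 143 list members, and 659 of the 865 calls were shared when line 6 was left out. The cause of these moves was not tested. The other pseudocounts, filters and scalings stayed within 1.5 times of each count. Equal sums, which lowered the median of all genes by 0.18 on the log2 scale, turned the list medians of ADAMTS proteases (−0.04), nucleotide genes (−0.03) and unfolded protein response genes (−0.08) below 0, and each of the 3 other filters changed the sign of 1 list median. Without line 8 the list medians of ADAMTS proteases (−0.35), plasminogen genes (−0.09), glycolysis genes (−0.09), unfolded protein response genes (−0.08) and interferon-stimulated genes (0.38) changed sign, as did that of unfolded protein response genes without line 7 (−0.10) and of nucleotide genes without line 6 (−0.15). Among 138 DE genes followed one by one, 118 lost their call without the replicate block, 27 without line 6, all 138 without line 7 and 128 without line 8. The promoter motif search was not run, because no promoter sequences were used here. With 3 lines and normalised counts of unknown depth, a gene that missed the threshold was not shown to be unchanged.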
